A study of Mus musculus with 32 samples.

Results

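The genes described here are 36 genes of glycolysis and of the transcriptional response to low oxygen: glucose and lactate transporters, the enzymes from hexokinase to lactate dehydrogenase, the hypoxia-inducible factor subunits with the prolyl hydroxylases that sense oxygen, and known targets of those factors. They were chosen by name, and each was read from the array probe set that carries its symbol alone and has the highest mean over the 24 arrays that were not immunoprecipitates. Of the 36 genes, 33 had such a probe set, among 18194 genes of the array that had one. Of these, 30 passed the filter on low values, among 12591 genes that passed it. The filter kept a probe set that exceeded 5.52, the array-wide median on the log2 scale, in at least 8 of the 32 arrays.

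RNA was measured on Affymetrix mouse genome arrays in 16 conditions with 2 independent samples each. NMuMG is a mouse mammary gland epithelial cell line, and E1KD is 1 derivative line of it in which hnRNP E1, a poly(C)-binding protein encoded by Pcbp1, was knocked down. The comparison for E1KD is NMuMG itself, since no line with a control vector was analysed here. Cells of both lines were untreated or received TGFβ2 at 5 ng/ml for 24 h, all in medium with serum and insulin, and no label gives a low-oxygen treatment. Total RNA, RNA of the monosomal pool (M) and RNA of the polysomal pool (P) of a sucrose gradient gave 24 arrays. Another 8 arrays hold RNA immunoprecipitated from NMuMG cytosolic extract with α-hnRNP E1 antibody or IgG.

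Glycolysis turns glucose into pyruvate in the cytosol, and lactate dehydrogenase turns pyruvate into lactate when it is not oxidised in mitochondria. When oxygen is plentiful, the prolyl hydroxylases of the Egln family mark the α subunits of the hypoxia-inducible factors, Hif1a and Epas1, for destruction through the von Hippel-Lindau protein. When it is scarce the factors persist, bind a short DNA element near many genes of glycolysis, and raise the transcription of those genes and of their own inhibitor Egln3. TGFβ drives mammary epithelial cells towards a mesenchymal form, and in NMuMG cells it is the standard inducer of that transition.

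The labels were checked first. Pcbp1, the targeted gene, read 13.08 and 13.12 in untreated NMuMG and 10.79 and 10.86 in untreated E1KD (log2, total RNA), and 9.55 and 9.33 in TGFβ-treated E1KD. The epithelial keratin gene Krt8 read 14.13 to 14.38 over the 8 total RNA arrays, while the leukocyte gene Ptprc read at most 4.09 there. Of the 8 mesenchymal markers listed, 5 passed the filter and 4 of these were higher in untreated E1KD than in untreated NMuMG, among them Fn1, at 9.61 and 9.67 in NMuMG and 13.02 and 13.04 in E1KD. The summed log2 values of all 8 were 58.37 and 59.22 in untreated NMuMG and 61.3 and 62.08 with TGFβ. In E1KD they were 68.06 and 68.08 untreated and lower with TGFβ, at 65.66 and 66.16. Of the 8 epithelial markers, all tested, 3 were lower in untreated E1KD, with summed log2 values of 79.65 and 80.14 in NMuMG and 76.06 and 76.2 in E1KD. With TGFβ these sums were not lower, at 81.42 and 81.18 in NMuMG and 76.43 and 76.26 in E1KD. Of 4 leukocyte markers 2 passed the filter, of 3 endothelial ones 1 and of 3 adipocyte ones 0. The leukocyte marker Cd68 read 6.67 and 6.48 in untreated NMuMG and 8.21 and 8.41 in untreated E1KD. The part of these marker differences in the results below was not tested. Replicate arrays correlated at 0.974 to 0.998 over the probe sets kept, and the lowest value was that of TGFβ-treated NMuMG monosomal RNA.

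Not every gene could be read. Gpi1 and Eno1, the enzymes of the isomerase and enolase steps, had no probe set named for them alone here, and Bnip3l, a mitophagy receptor, had only probe sets that carry another symbol as well. The glucose transporter gene Slc2a3 read 4.23 to 5.53 over the 24 arrays, the lactate exporter gene Slc16a3 read 3.55 to 4.53 and the carbonic anhydrase gene Car9 read 4.00 to 5.67, so these 3 did not pass the filter and were not tested. Adm, which encodes the vasodilator adrenomedullin, passed with 8 arrays above the median and Eno2, the neuronal enolase, with 9, so their values lie near the lower end of the range. All 9 arrays of Eno2 above that level were E1KD arrays, and of the 14 arrays of Pfkp above it 12 were E1KD and 2 were NMuMG. Both genes thus passed the filter through E1KD, and where their NMuMG values enter a comparison they are given as values, with no fold. The counts and figures include them, and the closing section lists log2 differences of both under other processing. Gapdh was read from a 3′ control probe set of the array, since the probe sets named for Gapdh alone are controls.

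TGFβ lowered a group of these genes in total RNA of NMuMG cells. Of the 30 genes tested, 11 fell and 1 rose at an adjusted p under 0.05 (limma, Benjamini-Hochberg over 25433 probe sets), where over all genes tested 2.95% fell and 3.46% rose. The median difference over the 30 genes was -0.25 on the log2 scale, beside 0.005 over all genes. The genes that fell were an oxygen sensor (Egln3), a hypoxia-inducible factor subunit (Epas1), targets of those factors (Bnip3, Ankrd37) and 7 genes of glycolytic enzymes. In a bulk sample, fewer cells that carry a transcript and less of it per cell cannot be told apart.

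The steps from fructose 6-phosphate to the trioses and on to lactate held most of the lower genes. Of the 10 genes tested between aldolase and lactate dehydrogenase, 5 fell, 0 rose by limma (0 also at an unadjusted p under 0.05) and all 10 differences were below 0. The 10 include Eno2, which lay under the filter's level on every NMuMG array, so its difference carries little weight. Pkm, which encodes pyruvate kinase of muscle and proliferating cells, read 12.29 and 12.37 in untreated NMuMG and 11.67 and 11.8 with TGFβ (log2). Both treated arrays lay below both untreated ones, and the gene was 1.51-fold lower, a log2 difference of -0.60 ± 0.10 (SE, n = 2 a group, limma adjusted p = 0.00105). Ldha, the lactate dehydrogenase subunit that favours lactate formation, read 13.28 and 13.27 untreated and 12.88 and 12.81 treated, a difference of -0.43 ± 0.09 (limma adjusted p = 0.00631). Aldoa (-0.39 ± 0.09), Aldoc (-0.88 ± 0.22) and Tpi1 (-0.33 ± 0.09), encoding 2 aldolases and triose phosphate isomerase, fell as well. Gapdh (-0.17), the phosphoglycerate kinase gene Pgk1 (-0.27), Pgam1 (-0.18), Ldhb (-0.19) and Eno2 did not pass the test, nor did Pdk1 (-0.37), whose product inhibits pyruvate dehydrogenase.

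At the phosphofructokinase step the genes split. Pfkl, the liver-type subunit, read 9.31 and 9.37 untreated and 8.62 and 8.72 treated, and Pfkm, the muscle-type subunit, read 9.71 and 9.67 untreated and 8.94 and 9.02 treated. The 2 genes were 1.59-fold and 1.64-fold lower, with no overlap between arrays (limma adjusted p = 0.00238 and 0.0011). Pfkfb3, whose product makes the allosteric activator fructose 2,6-bisphosphate, moved the other way, from 6.65 and 6.82 to 7.73 and 7.85. It was the gene that rose, 2.08-fold (log2 difference 1.06 ± 0.16, limma adjusted p = 0.000579). Its paralog Pfkfb4 read 7.04 and 6.99 untreated and 7.29 and 7.78 treated, and did not pass the test (adjusted p = 0.248, limma). Neither did the hexokinase genes Hk1 (-0.23) and Hk2 (0.37) nor the glucose transporter gene Slc2a1, at 12.39 and 12.4 untreated and 12.22 and 12.12 treated. The 2 other probe sets of Slc2a1 were lower after TGFβ by log2 differences of -0.42 and -0.60 (limma adjusted p = 0.0285 and 0.00713), so that call depends on the probe set.

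Among the oxygen-sensing genes, Egln3 changed most. It read 9.95 and 9.88 in untreated NMuMG and 8.2 and 8.21 with TGFβ, a 3.27-fold fall that left the groups far apart (log2 difference -1.71 ± 0.24, limma adjusted p = 0.000306), and its second probe set fell by 1.35 on the log2 scale. Epas1 read 10.02 and 10.12 untreated and 9.19 and 9.36 treated (-0.80 ± 0.17, limma adjusted p = 0.00989). The factor subunit gene Hif1a, at 12.12 and 12.05 untreated and 12.17 and 12.17 treated, and the main prolyl hydroxylase gene Egln1, at 9.37 and 9.43 untreated and 9.23 and 9.37 treated, did not pass the test. Of the targets, Bnip3, a mitophagy receptor of the outer mitochondrial membrane, fell from 10.73 and 10.75 to 9.95 and 10.03, and Ankrd37, an ankyrin repeat gene, from 7.35 and 7.45 to 6.68 and 6.68. These 2 genes were 1.68-fold and 1.65-fold lower (limma adjusted p = 0.0004 and 0.0117). Ndrg1, Kdm3a, Adm, Vegfa and Higd1a did not pass, with log2 differences between -0.31 and 0.45.

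**Figure D1:**
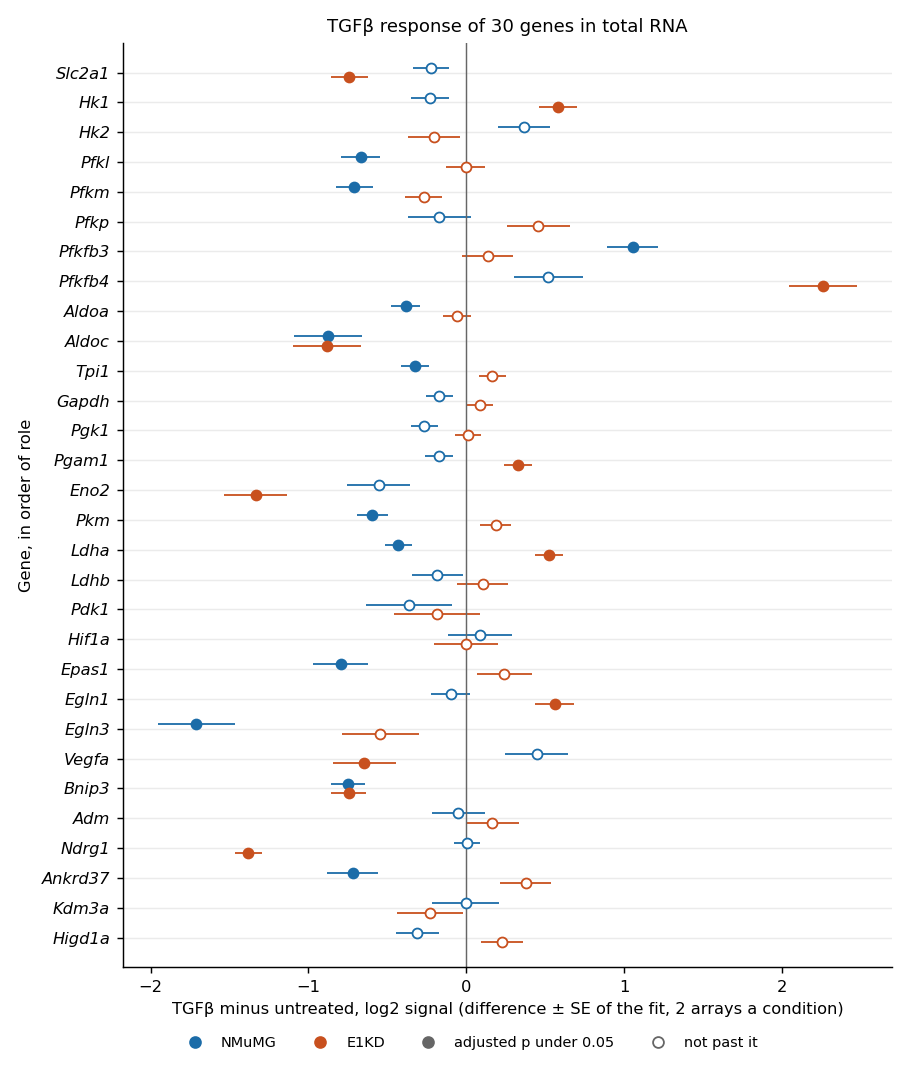
TGFβ minus untreated in total RNA, log2 difference ± SE of the limma fit, for each of the 30 genes in order of role, with NMuMG in blue and E1KD in orange (n = 2 arrays a condition). Filled points passed an adjusted p of 0.05. In NMuMG the filled points lie below 0 except for Pfkfb3, while in E1KD Pfkfb4 stands highest at 2.26 and Ndrg1 lowest at -1.38.

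With single arrays left out fewer of these genes were called, and the shares over all genes fell too. With 1 of the 4 total RNA arrays left out, 6 or 7 genes were called in place of 12, and Pfkl, Pfkm, Pfkfb3, Pkm, Egln3 and Bnip3 passed in every such fit. Aldoa, Aldoc, Tpi1 and Ankrd37 passed in none of them. A fit of all 32 arrays called 6 genes, where 1.66% of all genes rose and 1.28% fell.

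The promoters of 5 genes that moved are shown, those of an oxygen sensor, 2 targets, lactate dehydrogenase and the gene that rose, because the hypoxia response element lies near many genes of this pathway. They were chosen by role and by the cores they hold, and Tpi1, which also fell, held none. The element's core was searched as ACGTG or GCGTG on both strands of RefSeq promoters (GRCm38.p6), each 300 bases long, mostly before a transcript start. Of the 36 genes, 32 had such a promoter, 48 starts in all. The core stood in 37 of the 48 promoters (77.1%), where 14380 of all 32851 promoters held it (43.8%). By gene, with any start counted, 29 of the 32 held it (90.6%), beside 46.7% of all genes. Of the genes that fell after TGFβ in NMuMG 9 of 10 with a promoter held the core (90.0%), and of those that did not pass the test 16 of 17 (94.1%), so the core did not separate them. The core overlaps the palindrome CACGTG, which other factors such as Myc bind and which stood in 5 of the 48 promoters (10.4%) and in 7.2% of all. The sequences below run 5′ to 3′ on the gene's strand, with each core or its reverse complement in capitals. A CACGTG palindrome holds a core on each strand and counts as 2, and overlapping cores form 1 stretch of capitals. Egln3 (chr12:54203825-54204124, minus strand), which fell most, held 1 core. Bnip3 (chr7:138909457-138909756, minus strand) held 5, Ankrd37 (chr8:45999801-46000100, minus strand) held 4 and Ldha (chr7:46845554-46845853, plus strand, the start with the most cores of 2) held 7. Pfkfb3 (chr2:11502041-11502340, minus strand, 1 of 2 starts), the gene that rose, held 4.
Egln3: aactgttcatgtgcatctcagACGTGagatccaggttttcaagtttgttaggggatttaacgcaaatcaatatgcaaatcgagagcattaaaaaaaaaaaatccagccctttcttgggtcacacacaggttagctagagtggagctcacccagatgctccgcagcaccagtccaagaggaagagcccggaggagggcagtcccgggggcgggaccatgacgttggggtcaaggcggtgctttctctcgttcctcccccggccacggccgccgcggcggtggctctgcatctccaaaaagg
Bnip3: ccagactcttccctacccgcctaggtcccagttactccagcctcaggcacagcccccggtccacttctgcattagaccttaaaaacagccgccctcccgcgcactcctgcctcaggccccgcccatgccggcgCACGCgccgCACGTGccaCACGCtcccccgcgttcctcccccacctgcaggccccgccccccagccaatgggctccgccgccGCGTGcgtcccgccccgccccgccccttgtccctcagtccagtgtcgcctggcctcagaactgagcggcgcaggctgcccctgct
Ankrd37: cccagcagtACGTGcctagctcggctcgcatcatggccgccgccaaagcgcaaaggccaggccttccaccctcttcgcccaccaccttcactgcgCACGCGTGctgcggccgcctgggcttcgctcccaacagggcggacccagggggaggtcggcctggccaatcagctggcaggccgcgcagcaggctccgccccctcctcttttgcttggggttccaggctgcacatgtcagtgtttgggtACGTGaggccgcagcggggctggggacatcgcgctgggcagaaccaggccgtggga
Ldha: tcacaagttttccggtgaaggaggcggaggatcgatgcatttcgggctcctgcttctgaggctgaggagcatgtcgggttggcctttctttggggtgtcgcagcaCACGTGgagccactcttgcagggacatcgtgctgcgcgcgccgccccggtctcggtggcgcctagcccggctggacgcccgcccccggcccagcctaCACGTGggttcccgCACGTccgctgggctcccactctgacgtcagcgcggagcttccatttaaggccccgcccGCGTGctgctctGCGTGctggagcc
Pfkfb3: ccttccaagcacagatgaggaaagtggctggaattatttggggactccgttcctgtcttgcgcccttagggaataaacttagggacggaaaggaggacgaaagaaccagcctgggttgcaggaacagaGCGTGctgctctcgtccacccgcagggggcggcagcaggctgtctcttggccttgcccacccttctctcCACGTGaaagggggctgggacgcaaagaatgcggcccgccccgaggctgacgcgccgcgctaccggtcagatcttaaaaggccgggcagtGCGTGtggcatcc
A match of these letters is a description of the window and not a bound site.

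In E1KD cells TGFβ moved these genes in both directions. Of the 30, 5 rose and 6 fell, where 11.7% of all genes rose and 11.4% fell, and the median difference was 0.05 beside -0.03 over all genes. The higher genes were Pfkfb4, Hk1, Egln1, Ldha and Pgam1, and the lower ones Ndrg1, Eno2, Aldoc, Bnip3, Slc2a1 and Vegfa. In 8 of these 11 genes the call held with any 1 of the 4 arrays left out, and in Pgam1 and Vegfa it was lost whichever array was left out.

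Pfkfb4, a bifunctional enzyme gene that sets the level of fructose 2,6-bisphosphate, changed most. It read 6.44 and 6.61 in untreated E1KD and 8.87 and 8.7 with TGFβ, a 4.79-fold rise (log2 difference 2.26 ± 0.22, limma adjusted p = 1.8e-06). Hk1, the housekeeping hexokinase gene, read 9.99 and 10.11 untreated and 10.64 and 10.62 treated, and Ldha read 12.59 and 12.63 untreated and 13.11 and 13.16 treated. Both genes thus lay higher in both treated arrays, 1.5-fold and 1.44-fold (limma adjusted p = 0.00203 and 0.000431). Egln1 went from 9.55 and 9.61 to 10.16 and 10.12 (limma adjusted p = 0.00348), and the phosphoglycerate mutase gene Pgam1 from 12.72 and 12.67 to 13.03 and 13.02 (limma adjusted p = 0.013).

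Ndrg1, a stress-responsive gene induced by low oxygen in many cell types, fell from 12.9 and 12.91 to 11.51 and 11.54. This was a 2.60-fold fall (log2 difference -1.38 ± 0.08, limma adjusted p = 1.22e-08), and the 4 other probe sets of Ndrg1 fell by 1.5 to 1.9. Slc2a1 read 11.7 and 11.43 untreated and 10.79 and 10.86 treated, 1.67-fold lower (limma adjusted p = 0.000242), and its 2 other probe sets fell too. Vegfa, the angiogenic growth factor gene, read 10.75 and 10.69 untreated and 10.2 and 9.95 treated (limma adjusted p = 0.0305). Bnip3 fell from 10.56 and 10.47 to 9.77 and 9.77, 1.68-fold, and Aldoc fell from 6.6 and 6.7 to 5.66 and 5.88, 1.84-fold. These 2 genes fell in both lines. Eno2, near the lower end of the range, fell from 5.6 and 5.94 to 4.61 and 4.26.

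The response to TGFβ differed between the lines in 14 of the 30 genes by the test of the difference itself. It was higher in E1KD than in NMuMG in 11 and lower in 3, where 6.33% of all genes were higher and 6.84% lower. The comparison draws on the same arrays as the line-by-line results above. Ldha differed most clearly among the enzymes, falling by 0.43 in NMuMG and rising by 0.53 in E1KD (difference of responses 0.96 ± 0.12, limma adjusted p = 8.26e-05). Pkm (0.78 ± 0.14, limma adjusted p = 0.00137), Tpi1 (0.49), Pgam1 (0.51), Pfkl (0.67) and Hk1 (0.81) had the same sign. So did Pfkfb4 (1.74), the sensing genes Epas1 (1.04), Egln1 (0.66) and Egln3 (1.17), and Ankrd37 (1.10). The 3 genes with a lower response in E1KD were Ndrg1 (-1.39 ± 0.12, limma adjusted p = 1.12e-06), Vegfa (-1.09) and Pfkfb3 (-0.92). Bnip3 moved by -0.75 in both lines, with a difference of responses of 0.005 ± 0.16 (limma adjusted p = 0.994). With single arrays left out, 7 to 12 genes were called in place of 14, and Hk1, Pfkfb4, Pkm, Ldha, Ndrg1 and Ankrd37 passed every time. Centred on Actb instead, the split was 7 higher and 4 lower, where 4.56% of all genes were higher and 8.86% lower.

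**Figure D2:**
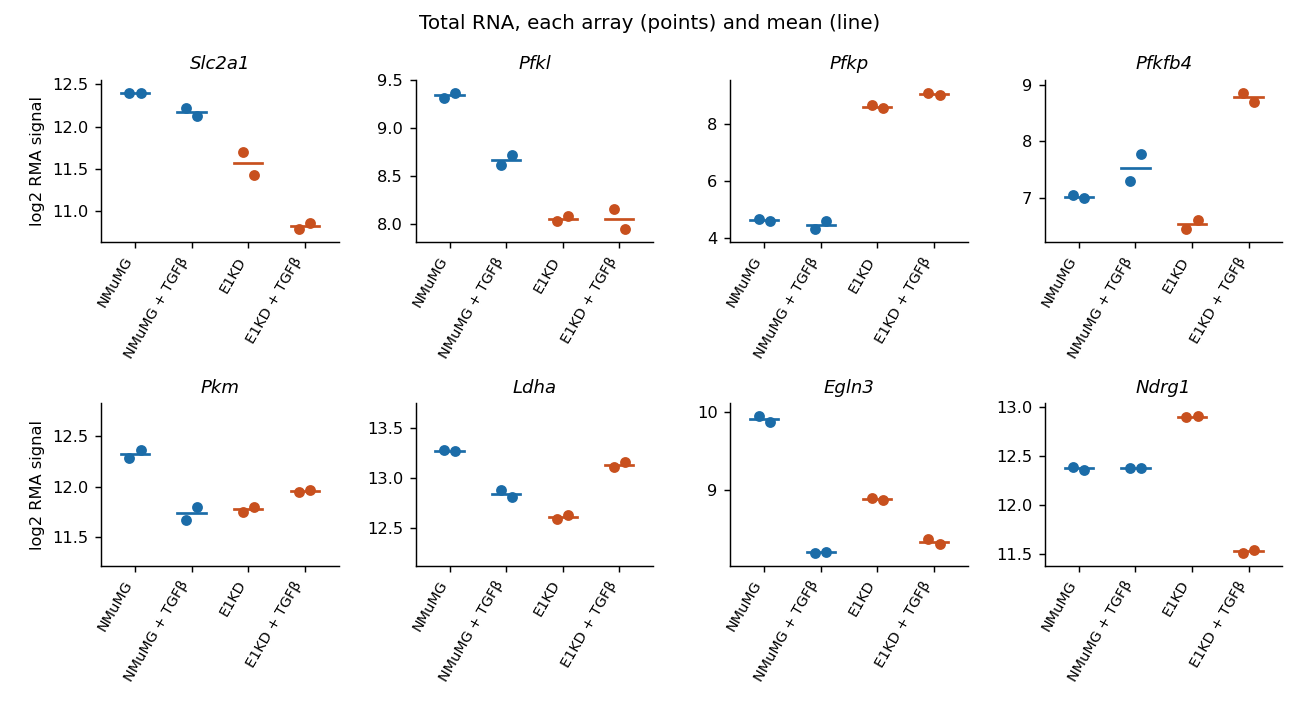
Log2 values of each total RNA array (1 point an array, 2 a condition) for Slc2a1, Pfkl, Pfkp, Pfkfb4, Pkm, Ldha, Egln3 and Ndrg1, in untreated and TGFβ-treated NMuMG and E1KD. Pfkp lies at 4.32 to 4.67 in NMuMG and 8.55 to 9.1 in E1KD, and Ndrg1 falls to 11.51 and 11.54 in TGFβ-treated E1KD alone.

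The lines themselves differed before treatment. In untreated cells 5 of the 30 genes were higher in E1KD and 12 lower, where 17.8% of all genes were higher and 15.1% lower. The median was -0.26 beside -0.02 over all genes. The 5 include Pfkp and Eno2, which passed the filter through E1KD, so their being higher there is not read as a result. Pfkp, the platelet-type phosphofructokinase gene, read 4.67 and 4.59 in NMuMG, under the filter's level of 5.52, and 8.66 and 8.55 in E1KD. Its second probe set was also higher in E1KD, by a log2 difference of 0.99 ± 0.23 (limma adjusted p = 0.00354), so the direction held over both probe sets and the size did not. Pfkl, the liver-type subunit, lay the other way, at 9.31 and 9.37 in NMuMG and 8.03 and 8.09 in E1KD, 2.43-fold lower (limma adjusted p = 5.54e-07), and all 3 of its probe sets were lower. The phosphofructokinase genes thus differed in opposite directions, and Pfkm, at 9.71 and 9.67 against 9.65 and 9.65, did not pass the test.

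Aldoc, the brain-type aldolase gene, read 9.78 and 9.77 in NMuMG and 6.6 and 6.7 in E1KD, 8.72-fold lower, and Epas1 read 10.02 and 10.12 against 7.17 and 7.12, 7.59-fold lower (limma adjusted p = 1.33e-08 and 2.18e-09). The second probe set of Epas1 was lower by a log2 difference of -1.41. Ankrd37 (-1.37), Egln3 (-1.03), Slc2a1 (-0.83), Kdm3a (-0.75), a histone demethylase gene, and the enzymes Ldha (-0.67), Tpi1 (-0.64), Pkm (-0.56), Hk1 (-0.49) and Pgam1 (-0.30) were lower too. Higher in E1KD beside Pfkp were Vegfa (1.01, from 9.65 and 9.78 to 10.75 and 10.69), Pfkfb3 (0.88) and Ndrg1 (0.53), and Eno2 read 5.08 and 5.11 in NMuMG and 5.6 and 5.94 in E1KD. Hif1a, at 12.12 and 12.05 in NMuMG and 12.14 and 11.99 in E1KD, overlapped between the lines.

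After TGFβ, 6 genes were higher in E1KD and 6 lower, where 15.8% of all genes were higher and 14.6% lower. Both shares were near those of all genes, and the 6 higher genes include Pfkp, which passed the filter through E1KD. Aldoc (8.75-fold lower), Epas1 (3.71-fold lower), Slc2a1 (2.54-fold lower), Kdm3a and Pfkl kept their direction and passed again. Pfkp read 4.32 and 4.6 in NMuMG, again under the filter's level, and 9.1 and 9.02 in E1KD, and its second probe set differed by 1.28. Ldha turned from lower to higher (-0.67 untreated, 0.29 with TGFβ) and Ndrg1 from higher to lower (0.53 untreated, -0.86 with TGFβ). The call of Ldha with TGFβ was lost whichever of the 4 arrays was left out. With arrays centred on Actb the split with TGFβ was 3 higher and 9 lower, where 11% of all genes were higher and 22.5% lower.

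The fractions ask where on the gradient each transcript lay. The P − M value is the log2 polysomal value minus the monosomal value, and the polysome shift is P − M with TGFβ less P − M without it. The arrays were normalised to one another, so a P − M value is relative to the other transcripts of each pool and not an amount of RNA. In untreated NMuMG 8 of the 30 genes had a P − M value above 0 that passed the test and 10 below, where 30.5% of all genes lay above and 43.9% below. The 2 monosomal arrays of untreated NMuMG stood apart in the difference between the 3′ and 5′ control probe sets of Gapdh, a measure of RNA integrity, at 0.51 and 0.45 against -0.04 to 0.13 on the other arrays of this fit. The same difference for Actb did not set these 2 arrays apart, at 0.69 and 0.66 against 0.39 to 0.81 on the other arrays of this fit. The part of the Gapdh difference in the results was not tested, so the counts over the 30 genes that rest on these arrays are also given against total RNA.

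In untreated NMuMG Hif1a had the lowest P − M value, at 11.42 and 11.55 in the monosomal pool and 10.02 and 9.54 in the polysomal pool, a difference of -1.71 ± 0.20 (limma adjusted p = 1.84e-06). Pfkm had the highest (1.32), from 8.84 and 8.71 (M) to 10.22 and 9.96 (P). Tpi1 (-0.48), Pgam1 (-0.83), Pfkl (-0.94), Hk2 (-0.91), Bnip3 (-0.58), Kdm3a (-0.72) and Vegfa (-0.82) were lower in the polysomal pool, and Ndrg1 (0.74), Egln3 (0.80), Aldoa (0.53) and Adm (0.85) higher. The split depends on the scaling, as it does over all genes. It was 13 above and 7 below after quantile normalization, where 38.8% of all genes lay above and 32.5% below. With arrays centred on Actb it was 18 above and 3 below, where 51.8% lay above and 25.9% below. For Pfkl and Vegfa it depends on the probe set, since other probe sets of these genes gave P − M values of 1.09 and 1.14. Against total RNA 4 genes were higher in the polysomal pool and 17 lower, where 42.7% of all genes were higher and 39.9% lower.

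With TGFβ, P − M was above 0 in 11 genes and below 0 in 10 in NMuMG, where 29.4% of all genes lay above and 25.9% below. Epas1 read 7.01 and 7.27 in the monosomal pool and 9.28 and 9.14 in the polysomal pool, 4.20-fold higher. Kdm3a (6.23 and 7.11 against 8.73 and 8.69), Egln3 (7.01 and 8.03 against 9.35 and 9.43), Hk2 (8.14 and 8.88 against 9.95 and 9.91) and Egln1 (9.2 and 9.56 against 10.68 and 10.62) lay in the polysomal pool as well, with no overlap between pools. The glycolytic enzymes Pfkl (10.19 and 10.04 against 8.41 and 8.26) and Tpi1 (13.54 and 13.51 against 12.79 and 12.69) were lower there, while Pgk1 (12.91 and 12.99 against 13.69 and 13.72) was higher. Centred on Actb the split was 17 above and 3 below, where 50.2% of all genes lay above and 13.5% below.

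In E1KD the pools gave 5 genes above 0 and 9 below without TGFβ, where 17.0% of all genes lay above and 22.2% below. With 1 of the 4 arrays left out, 1 to 3 genes were above 0, the fewest without the second polysomal array, and 8 below. With TGFβ they gave 11 above and 8 below, where 34.8% lay above and 30.6% below. Slc2a1 was lower in the polysomal pool in both states, at 11.99 and 12.01 against 10.93 and 10.78 untreated and 11.75 and 11.7 against 10.75 and 10.6 with TGFβ. Pfkl and Tpi1 were also lower in both states, and Epas1 and Kdm3a higher. For Epas1 the mean over its probe sets put the TGFβ-treated P − M value at -0.01. Vegfa was lower without TGFβ (10.07 and 10.06 against 9.04 and 9.18) and overlapped between pools with it. Centred on Actb the split without TGFβ was 8 above and 7 below, where 26% of all genes lay above and 15% below. With TGFβ it was 16 above and 4 below, where 43.9% lay above and 19.6% below.

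The polysome shift was called in most of these genes in NMuMG, as it was across the array. Of the 30 genes, 14 had a shift above 0 and 12 below, where 41.3% of all genes lay above and 33.9% below, and the median was 0.24 beside 0.04 over all genes. The 4 genes of oxygen sensing all shifted towards the polysomal pool, while 7 of the 10 genes from aldolase to lactate dehydrogenase shifted away. The 7 include Eno2, which lay under the filter's level on every NMuMG array. Against total RNA 2 of the 4 oxygen-sensing genes passed, Epas1 and Egln1, and none of the 7 genes that shifted away, of which Tpi1, Gapdh, Eno2 and Ldha then had values above 0. Of the 7 hypoxia targets tested 3 shifted towards the polysomal pool and 2 away, near the shares of all genes. Against total RNA 7 genes were called, 6 above 0 and 1 below, where 8.63% of all genes lay above and 5.35% below. The genes called in the same direction with both references were Hk1, Hk2, Epas1, Egln1 and Bnip3, towards the polysomal pool, and Ndrg1, away from it. Both references share the polysomal arrays, and a change in total RNA enters the second. Epas1 and Bnip3 fell in total RNA of NMuMG after TGFβ, and that fall enters their shifts against it. The shift of Hk1 was -0.27 after quantile normalization, and its call was lost in 6 of the 8 fits that left out 1 array.

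Kdm3a had the largest shift with monosomal RNA as the reference, 2.76 ± 0.30 (limma adjusted p = 6.79e-07), from pools of 8.64 and 8.66 (M) and 8.15 and 7.71 (P) without TGFβ to 6.23 and 7.11 (M) and 8.73 and 8.69 (P) with it. With total RNA as the reference its shift was 0.79 (limma adjusted p = 0.103). Hk2, the inducible hexokinase gene, went from 9.3 and 9.31 (M) and 8.44 and 8.35 (P) to 8.14 and 8.88 (M) and 9.95 and 9.91 (P). Its shift was 2.33 ± 0.23 (limma adjusted p = 2.8e-07), and 1.17 with total RNA (limma adjusted p = 0.00363). Thus both the fall in M and the rise in P entered the value for Hk2.

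Hif1a showed a shift of 1.68 ± 0.29 (limma adjusted p = 7.69e-05), and its 3 probe sets gave 1.20 to 2.06. Its polysomal values were 10.02 and 9.54 without TGFβ and 9.62 and 9.45 with it, while its monosomal values went from 11.42 and 11.55 to 9.12 and 10.0. The change thus lay in the monosomal pool, and with total RNA as the reference the shift was -0.33 (limma adjusted p = 0.536). Egln1 shifted by 1.46 ± 0.17 and by 1.22 with total RNA (limma adjusted p = 2.04e-06 and 0.000412), with polysomal values of 9.57 and 9.49 without TGFβ and 10.68 and 10.62 with it. Epas1 shifted by 1.75 and 1.51 with the 2 references, but its second probe set gave -0.29. Bnip3 shifted by 1.55 ± 0.16 and by 0.69 with total RNA, with monosomal values of 10.84 and 10.74 that went to 9.11 and 9.25.

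Away from the polysomal pool, Ndrg1 went from 11.29 and 11.42 (M) and 12.09 and 12.1 (P) to 11.51 and 11.49 (M) and 11.4 and 11.42 (P), a shift of -0.83 ± 0.12 (limma adjusted p = 1.22e-05). All 5 of its probe sets shifted this way, and with total RNA the shift was -0.69. Adm (-1.89), Pfkm (-1.19), Ldhb (-0.97), Pfkl (-0.85), Slc2a1 (-0.83), Aldoa (-0.81), Pkm (-0.57), Ldha (-0.33), Tpi1 (-0.31) and Gapdh (-0.29) shifted away with monosomal RNA as the reference, and none of these 10 passed with total RNA. Adm reached at most 6.41 on any array of this comparison, and Eno2, the other gene called, lay under the filter's level on all of them. Pfkfb3 (1.67), Pdk1 (1.52), Egln3 (1.07), Pgk1 (0.64), Higd1a (0.54) and Pgam1 (0.50) shifted towards the polysomal pool with monosomal RNA alone as well. Pfkp, also called, read 5.58 and 5.63 (M) and 4.79 and 5.21 (P) without TGFβ and 4.23 and 4.39 (M) and 5.02 and 4.59 (P) with it, near or under the filter's level, and its second probe set gave -0.92. After quantile normalization the split was 12 above and 14 below, where 34.4% of all genes lay above and 40.8% below.

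**Figure D3:**
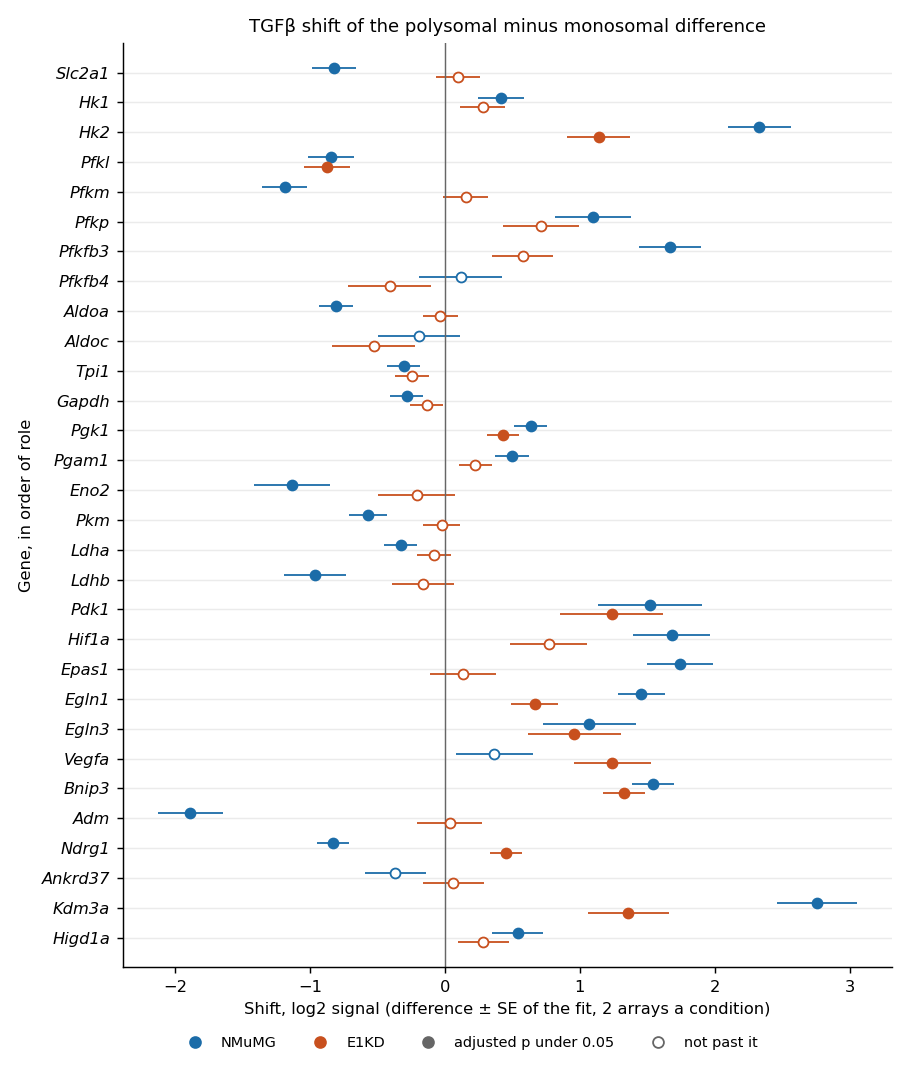
Polysome shift (P − M with TGFβ minus P − M without it, log2 ± SE of the limma fit) for each of the 30 genes, with NMuMG in blue and E1KD in orange. Filled points passed an adjusted p of 0.05, and values run from -1.89 (Adm, NMuMG) to 2.76 (Kdm3a, NMuMG).

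In E1KD 9 genes shifted towards the polysomal pool and 1 away, where 23.2% of all genes lay above 0 and 9.44% below, and the median was 0.19 beside 0.07 over all genes. Kdm3a (1.36), Bnip3 (1.33), Vegfa (1.24), Pdk1 (1.24), Hk2 (1.14), Egln3 (0.96), Egln1 (0.67), Ndrg1 (0.45) and Pgk1 (0.43) made up the 9, and Pfkl (-0.88) was the 1 below 0. Bnip3 went from 9.95 and 10.2 (M) and 9.69 and 9.76 (P) to 8.49 and 8.67 (M) and 9.66 and 9.45 (P), so its change too lay in the monosomal pool. With total RNA as the reference 3 genes were above 0 and 5 below, where 7.12% of all genes lay above and 5.49% below. Those called in the same direction with both references were Bnip3, Ndrg1 and Pfkl. Bnip3 and Ndrg1 fell in total RNA of E1KD after TGFβ, and that fall enters their shifts against it. The second probe set of Vegfa gave a shift of 0.01 and that of Egln3 -0.14. Hif1a, at 0.77, did not pass (limma adjusted p = 0.0542).

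The shift differed between the lines in 11 genes, 6 higher in E1KD and 5 lower, where 15.3% of all genes were higher and 24.7% lower. Adm (1.93), Pfkm (1.35), Ndrg1 (1.28 ± 0.17, limma adjusted p = 4.26e-05), Slc2a1 (0.92), Aldoa (0.78) and Pkm (0.55) shifted more towards the polysomal pool in E1KD than in NMuMG. Epas1 (-1.61), Kdm3a (-1.40), Hk2 (-1.19), Pfkfb3 (-1.10) and Egln1 (-0.79) shifted less. With total RNA as the reference, those called in the same direction were Slc2a1, Epas1, Egln1 and Ndrg1, while 11 genes were called in all, 3 higher and 8 lower, where 7.32% of all genes were higher and 7.99% lower. For Ndrg1 the 5 probe sets agreed, with differences of 1.28 to 2.09. The split moved with the scaling, to 8 higher and 3 lower after quantile normalization, where 20.2% of all genes were higher and 19.3% lower. With arrays centred on Actb it was 10 and 4, where 22% were higher and 17.8% lower.

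**Figure D4:**
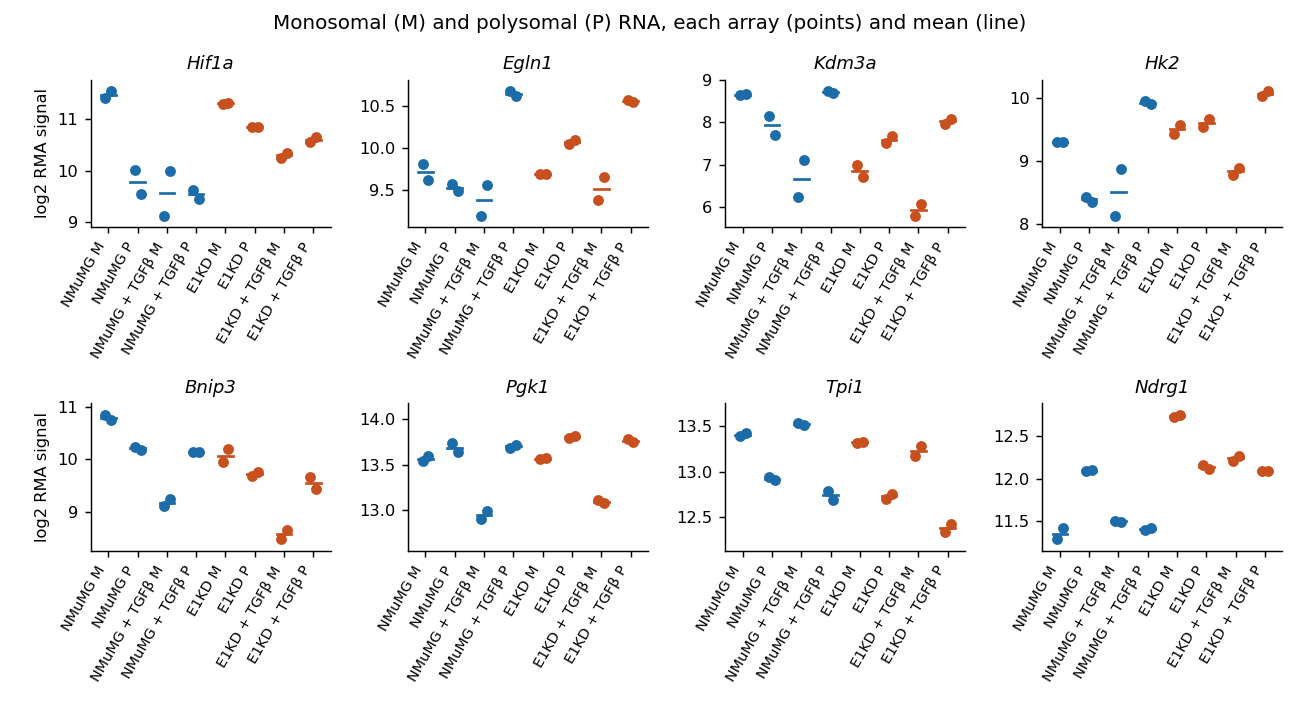
Log2 values of each monosomal (M) and polysomal (P) array, 1 point an array, for Hif1a, Egln1, Kdm3a, Hk2, Bnip3, Pgk1, Tpi1 and Ndrg1 in untreated and TGFβ-treated NMuMG and E1KD. Hif1a falls in the monosomal pool of NMuMG from 11.42 and 11.55 to 9.12 and 10.0 while its polysomal values overlap, and Tpi1 lies lower in P than in M in all 4 states.

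The immunoprecipitates ask which transcripts came down with hnRNP E1 more or less than with IgG. The treatment labels of 2 of the 4 α-hnRNP E1 libraries conflict: 14B is titled as control and described as TGFβ-treated, and 13B the reverse. The 4 α-hnRNP E1 libraries were therefore compared as a whole with the 4 IgG libraries, and no effect of TGFβ on binding is given. The libraries also stood apart by the number in their titles: in 24 of the 30 genes the values of 13A and 13B did not overlap those of 14A and 14B, with the 13 libraries higher in 3 and the 14 libraries higher in 21. The share over all genes was not computed, so the 24 are not read as particular to this list. The descriptions group the libraries the same way, with 13A and 13B untreated. Fn1 read 9.34 and 9.6 in 13A and 13B and 7.31 and 7.56 in 14A and 14B. With IgG it read 8.18 and 8.02 untreated and 9.29 and 9.34 with TGFβ. Krt19 also separated by number, and Cdh1 did not. Which treatment each library had was not tested. The comparison is relative within each library, so a negative value means a smaller share than in the IgG library. Of the 30 genes, 3 were higher with α-hnRNP E1 and 8 lower, where 15.9% of all genes were higher and 10.9% lower, and the median was -0.21 beside 0.01 over all genes.

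Bnip3 was the lowest of them. It read 9.25 in library 13A, 10.51 in 13B, 10.73 in 14A and 11.4 in 14B, against 12.62, 12.61, 12.35 and 12.45 with IgG. All 4 α-hnRNP E1 libraries lay below all 4 IgG libraries, 4.10-fold on average (log2 difference -2.04 ± 0.40, limma adjusted p = 0.0106). Slc2a1 read 8.77 to 9.06 with α-hnRNP E1 and 9.27 to 9.65 with IgG (-0.59 ± 0.09, limma adjusted p = 0.00505), and Ankrd37 read 6.69 to 8.52 against 8.74 to 9.28 (-1.30). Epas1 (-0.68), Higd1a (-0.58), a small protein gene of the respiratory chain, Kdm3a (-0.42) and Egln1 (-0.36) were lower with no overlap, and Aldoa (-0.36) with ranges that met at 13.43. In each of the 8 fits that left out 1 library, the calls of Slc2a1 and Bnip3 held.

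The 3 higher genes were Pkm, Hk2 and Hk1. Pkm read 12.91 to 13.36 with α-hnRNP E1 and 12.44 to 12.69 with IgG (0.53 ± 0.12, limma adjusted p = 0.0159), and Hk1 read 11.09 to 11.45 against 10.67 to 10.96 (0.46 ± 0.10, limma adjusted p = 0.0138). Hk2, at 12.12 to 12.57 against 11.59 to 12.15, overlapped between antibodies. The values of Pkm, Hk2 and Hk1 were among those that followed the number in the titles, as were those of Bnip3 and Slc2a1. The separation was wide in Pfkfb4 and Egln3. Pfkfb4 read 9.63 in 13A and 9.54 in 13B but 7.69 in 14A and 7.71 in 14B, and Egln3 read 8.18 and 9.02 in 13A and 13B against 10.44 and 10.72 in 14A and 14B. Neither gene passed the test against IgG (limma adjusted p = 0.108 and 0.0797). With treatment taken from the descriptions the same fit called 20 genes in place of 11, where 24.2% of all genes were higher and 19.9% lower. With all 32 arrays in the fit it also called 20, where 17.3% were higher and 12.6% lower. Without the library 14B it called 19, and without any 1 of the IgG libraries 2 or 3.

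**Figure D5:**
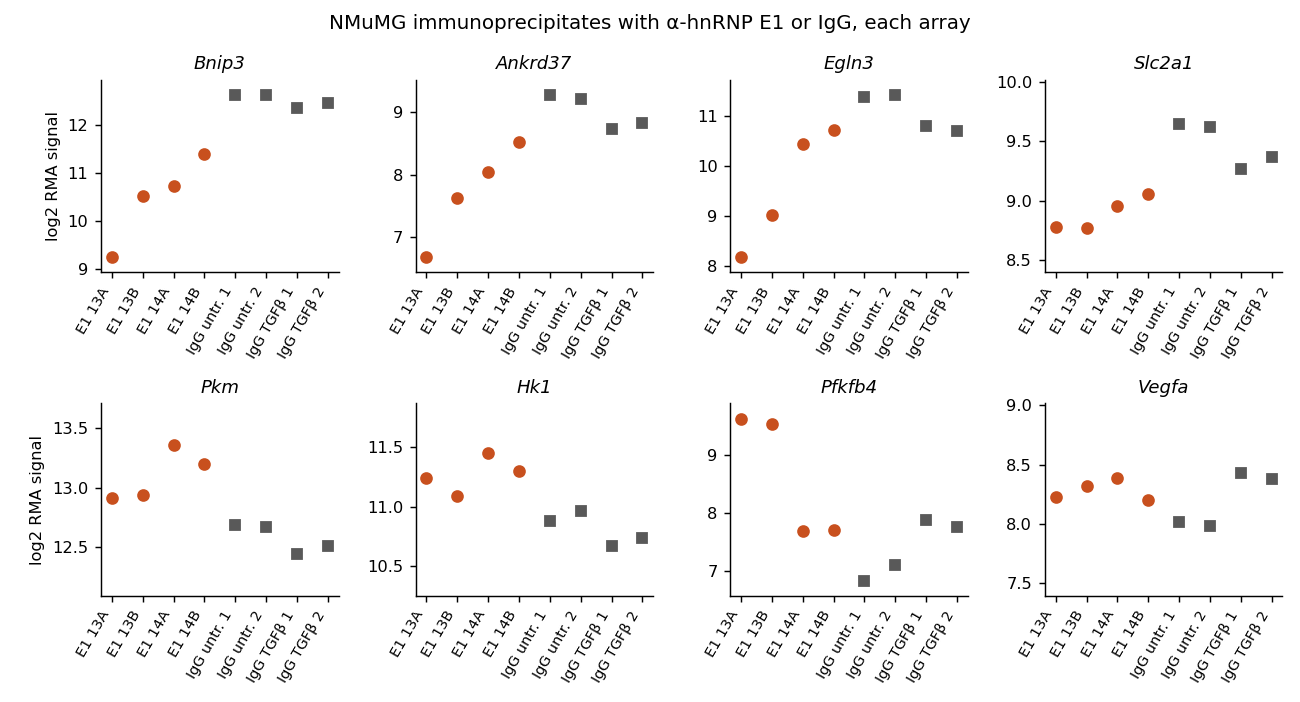
Log2 values of each immunoprecipitate, 1 point a library, for Bnip3, Ankrd37, Egln3, Slc2a1, Pkm, Hk1, Pfkfb4 and Vegfa, with the α-hnRNP E1 libraries named by their titles (13A, 13B, 14A, 14B) beside the 4 IgG libraries. Bnip3 lies between 9.25 and 11.4 with α-hnRNP E1 and between 12.35 and 12.62 with IgG, and Pfkfb4 separates 13A and 13B from 14A and 14B.

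Genes around the pathway give the frame for the 30, and their counts stand beside the shares of all genes given above (in NMuMG total RNA 3.46% rose and 2.95% fell, in E1KD 11.7% and 11.4%). Of 17 other glycolytic genes tested, TGFβ lowered 1 in NMuMG, the phosphoglucomutase gene Pgm1 (-0.64, limma adjusted p = 0.0175), and in E1KD raised Pdk3 (0.83) and lowered Adpgk (-0.51). Of 9 genes of the pentose phosphate pathway, which branches off at glucose 6-phosphate, 0 passed in NMuMG by limma (1 at an unadjusted p under 0.05) and 1 fell in E1KD, the ribose 5-phosphate isomerase gene Rpia (-0.92). Of 24 genes of pyruvate oxidation and the TCA cycle, 1 fell in NMuMG, the pyruvate carboxylase gene Pcx (-0.89), and 4 rose and 3 fell in E1KD, near the shares of all genes. Of 13 genes of the oxygen-sensing machinery such as Vhl and Arnt, 0 passed in NMuMG by limma (0 also at an unadjusted p under 0.05), and 3 rose and 1 fell in E1KD. The other lists thus held few genes changed in total RNA of NMuMG, with medians of -0.09, -0.06, -0.04 and 0.00.

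Of 28 other genes known to be induced by low oxygen, 6 fell and 2 rose in NMuMG after TGFβ, where 2.95% of all genes fell. Selenbp1, a selenium-binding protein gene (-1.31), and the nuclear receptor gene Rora (-0.89) fell, and the repressor gene Bhlhe40 (0.80) and Ddit4, an inhibitor of mTOR signalling (0.75), rose. In E1KD 8 fell and 6 rose, with Rora (-1.96), Stc2 (-1.93) and Ero1a (-1.32) lower and Angptl4 (1.75) higher. In the immunoprecipitates 11 of the 28 were lower with α-hnRNP E1 than with IgG by limma and 0 were higher (0 also at an unadjusted p under 0.05), where 10.9% of all genes were lower and 15.9% higher, led by Mxi1 (-1.47), Rora (-1.30), Fam162a (-0.98) and P4ha1 (-0.93). Of the 24 genes of pyruvate oxidation and the TCA cycle 10 were higher with α-hnRNP E1 and 1 was lower, with Pdhx (0.88), Dld (0.57) and Fh1 (0.47) higher and Mpc1 (-0.84), a subunit of the mitochondrial pyruvate carrier, lower. Of 8 regulators of glycolytic transcription, 1 fell in NMuMG, Ppargc1a (-1.04), and 0 passed in E1KD by limma (0 also at an unadjusted p under 0.05).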

How the data were processed

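RNA of 16 conditions with 2 samples each was measured on 32 Affymetrix mouse arrays. The deposited values are log2 intensities, which the authors obtained by RMA (Affymetrix Expression Console). No probe-level intensities were used here, and the number of arrays, 2 a condition, limits the precision. P-values measure the spread between those samples alone.

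Probe sets took their symbols from the platform annotation, updated through RefSeq gene identifiers, and 34958 of 45101 carried 1 symbol. The 64 control probe sets were left out, except the 3′ one of Gapdh. Linear models of limma 3.58.1 (R 4.3.3) were fitted to the 12 conditions of the 24 arrays that were not immunoprecipitates (12 residual degrees of freedom) and, separately, to the 8 immunoprecipitates (4 degrees of freedom). Benjamini-Hochberg adjustment ran over the 25433 probe sets kept, at a threshold of 0.05. Shares over all genes count 1 probe set a gene. The genes named are the 36 listed ones, and of the other pathway lists the called genes with the largest differences. Members and lists were chosen with earlier results of these data known. The models were tested on simulated data with 200 changed probe sets. Tables were handled with Python 3.11.15, pandas 2.3.3 and matplotlib 3.10.9. Alternatives were a fit of all 32 arrays or of the compared groups alone, no filter, quantile normalization, centring on Actb, a mean over probe sets, a replicate block, single arrays left out and, chosen after seeing the data, total RNA as the reference for polysomal RNA. Replicate numbers did not pair the samples.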

Additional observations from a re-analysis of the deposited data

Results flagged for a closer look

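The genes below responded differently in NMuMG and E1KD by the limma test of the difference itself (E1KD minus NMuMG, log2). For the response of total RNA to TGFβ, the glycolytic genes Hk1 (0.81), Pfkl (0.67), Pfkfb4 (1.74), Tpi1 (0.49), Pgam1 (0.51), Pkm (0.78) and Ldha (0.96) had a higher response in E1KD, and Pfkfb3 (-0.92) a lower one. Of the oxygen-sensing genes and targets, Epas1 (1.04), Egln1 (0.66), Egln3 (1.17) and Ankrd37 (1.10) had a higher response, and Vegfa (-1.09) and Ndrg1 (-1.39) a lower one. Adjusted p-values ran from 1.12e-06 for Ndrg1 to 0.0387 for Egln3.

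For the polysome shift, Slc2a1 (0.92), Pfkm (1.35), Aldoa (0.78), Pkm (0.55), Adm (1.93) and Ndrg1 (1.28) had a higher value in E1KD. Hk2 (-1.19), Pfkfb3 (-1.10), Epas1 (-1.61), Egln1 (-0.79) and Kdm3a (-1.40) had a lower one. Adjusted p-values ran from 4.26e-05 for Ndrg1 to 0.0397 for Pkm. Ndrg1, Epas1, Egln1, Pkm and Pfkfb3 stand in both groups of genes. For Pkm the shift difference was -0.26 against total RNA rather than monosomal RNA. Each condition held 2 arrays, so single arrays could not be compared with the rest of their group.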

How the results depend on the processing

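Counts of the 30 genes called moved by over 1.5 times in few settings. TGFβ in NMuMG total RNA gave 12 genes, 6 in a fit of all 32 arrays and 6 to 7 with single arrays left out, and the difference of responses gave 14, with 7 to 12. P − M in TGFβ-treated NMuMG gave 21 genes and 13 in a fit of the compared groups alone, where the difference in polysome shift gave 7 in place of 11. P − M in untreated E1KD gave 14, with 9 to 11 when single arrays were left out. The immunoprecipitates gave 11 genes, 20 in a fit of all 32 arrays, 20 with treatment taken from the descriptions and 2 to 19 with single libraries left out. The polysome shift in NMuMG gave 26 genes and 7 when polysomal RNA was set against total RNA. The number of arrays, 2 a condition, limits all of these counts. In most of these settings the shares over all genes moved in the same direction. A fit with a replicate block gave 17 in place of 18 genes for P − M in untreated NMuMG, 12 in place of 11 for the difference in shift and 9 in place of 11 for the immunoprecipitates, and the same count elsewhere. Deviations of same-numbered arrays correlated between -0.383 and 0.323 over 66 pairs of conditions, so the numbers were not taken as pairs.

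Signs turned for single genes as follows, and unless a scaling or reference was changed by construction the cause was not tested. After quantile normalization P − M in untreated NMuMG was 0.46 for Hk1 and 0.37 for Egln1, and the shift of Hk1 in NMuMG was -0.27. Centring on Actb moved the median of all genes in P − M of untreated NMuMG from -0.17 to 0.42, and quantile normalization to 0.15. With that centring P − M in untreated NMuMG was 0.46 for Hk1, 0.14 for Pfkfb3, 0.11 for Tpi1, 0.51 for Ldha, 0.41 for Egln1, 0.01 for Bnip3, 0.51 for Ankrd37 and 0.41 for Higd1a. In TGFβ-treated NMuMG it was 0.17 for Aldoa, 0.34 for Gapdh, 0.12 for Pgam1, 0.08 for Pkm, 0.035 for Ldha and 0.36 for Ndrg1, and in TGFβ-treated E1KD 0.065 for Aldoa. As a mean over probe sets the line difference of Higd1a was 0.67, P − M in untreated NMuMG was 0.077 for Pfkl, 0.08 for Pfkp and 0.16 for Vegfa, P − M of Epas1 in TGFβ-treated E1KD was -0.008, the shift of Vegfa in NMuMG was -0.41 and the shift difference of Pfkl was 0.68. Without single arrays, P − M of Hif1a in TGFβ-treated NMuMG ran from -0.465 to 0.415, the highest without the second monosomal array. Set against total RNA, the polysomal difference in untreated NMuMG was -0.53 for Slc2a1, 0.37 for Pfkp, -0.33 for Aldoc, -0.38 for Pgk1, -1.58 for Epas1 and -0.28 for Ndrg1. The shift in NMuMG was then 0.22 for Pfkl, -0.025 for Pfkp, 0.14 for Tpi1, 0.07 for Gapdh, 0.20 for Eno2, 0.28 for Ldha, -0.33 for Hif1a and 0.79 for Ankrd37. The shift in E1KD was -0.85 for Hk1, -0.055 for Pgk1, -0.07 for Egln1 and -0.045 for Egln3, and the shift difference -0.65 for Tpi1, -0.26 for Pkm, -1.05 for Ldha and -1.11 for Ankrd37.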
